A study of Mus musculus with 6 samples.

Results

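Frg1, Slc25a4, Fat1, Sorbs2 and Pdlim3 are the mouse orthologs of 5 genes from human 4q35, the chromosome end whose D4Z4 repeat array is contracted in facioscapulohumeral muscular dystrophy (FSHD). They were taken by symbol from the 52550 mouse genes of the deposited table, and each symbol matched a single row. RNA came from skeletal muscle of 3 male FLExDUX4 mice and 3 male wild-type littermates. The FLExDUX4 mice are hemizygous for a human DUX4 transgene that was placed in inverted orientation between lox sites at the Rosa26 locus. They carry no Cre driver, and leaky, low-level DUX4 expression has been described for this line. The sample labels give quadriceps muscle and an age of 13 weeks for both genotypes, whereas the methods name triceps and a younger age.

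Transcript ends were counted with QuantSeq, which reads the 3′ end of polyadenylated RNA, so that counts need no division by transcript length. Counts on genes came to 13110125 for the FLExDUX4 total and 18367364 for the wild-type total. The table's 6 columns of single samples match no sample label and were not used, so each gene has one count per genotype and no replicate check. A ratio below is the log2 ratio of FLExDUX4 to wild-type after TMM scaling, which centres the ratios of most genes on 0, and its 95% interval covers counting error only. Values given as by spike-ins were scaled instead to the counts on the added ERCC and SIRV control RNAs. The spread between mice was not measured, and a difference between the totals can come from 1 mouse. In whole muscle, fewer cells of a type and less RNA per cell cannot be told apart.

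D4Z4 contraction de-represses DUX4, and before DUX4 was accepted as the disease gene the neighbouring 4q35 genes were examined as candidates. FRG1 is a nuclear protein found in spliceosomes, and transgenic mice with excess Frg1 in muscle develop a dystrophy. SLC25A4 (ANT1) is the ADP/ATP carrier of heart and skeletal muscle mitochondria, FAT1 is a giant atypical cadherin, SORBS2 is an adaptor protein of the actin cytoskeleton and Z-disc, and PDLIM3 (ALP) binds α-actinin at the Z-disc. In these mice the transgene sits at Rosa26 and not next to the orthologs.

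All 5 genes are protein-coding and lie on mouse chromosome 8 (GRCm38, GENCODE annotation), where the annotated gene start equals the deposited one. Frg1 (ENSMUSG00000031590) spans 41397459 to 41417074 on the minus strand. Fat1 (ENSMUSG00000070047) spans 44935447 to 45052257 on the plus strand, 3518.4 kb farther on. Sorbs2 (ENSMUSG00000031626) spans 45507788 to 45827906 on the plus strand. Pdlim3 (ENSMUSG00000031636) follows it after 57.6 kb on the same strand, from 45885461 to 45919548. Slc25a4 (ENSMUSG00000031633) spans 46206797 to 46211284 on the minus strand. The annotation gives Frg1 and Slc25a4 1 coding transcript each, Pdlim3 2, Fat1 4 and Sorbs2 25 with 23 different 3′ ends, so the Sorbs2 count sums over many possible ends.

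Sorbs2 and Pdlim3 are the closest pair of the 5 and had ratios that differed under any scaling, of unlike sign with TMM and both below 0 by spike-ins, so the sequences before their annotated starts are shown. They are RefSeq windows of GRCm38.p6 on the plus strand, cut at the annotated gene start. Sorbs2 has 24 different annotated coding starts. Only the window before its gene start is shown, and which start is used in this muscle was not measured. Capitals mark a CCAAT box (CCAAT) or an E-box (CANNTG, the site of MyoD-type factors), on either strand.
Sorbs2, chr8:45507538-45507787: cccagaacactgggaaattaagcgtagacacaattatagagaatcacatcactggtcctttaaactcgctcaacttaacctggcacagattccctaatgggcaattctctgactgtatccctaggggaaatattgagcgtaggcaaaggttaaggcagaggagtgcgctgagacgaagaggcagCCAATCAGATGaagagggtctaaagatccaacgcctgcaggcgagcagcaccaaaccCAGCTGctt
Pdlim3, chr8:45885237-45885460: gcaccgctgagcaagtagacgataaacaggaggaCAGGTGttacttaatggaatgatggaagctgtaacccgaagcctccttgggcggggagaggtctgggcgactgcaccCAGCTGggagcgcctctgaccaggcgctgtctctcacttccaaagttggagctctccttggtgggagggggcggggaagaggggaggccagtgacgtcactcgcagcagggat

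Both windows hold 2 E-boxes, and in Sorbs2 the CCAAT box directly adjoins one of them. An E-box was present in 66.2% and a CCAAT box in 33.8% of all 32851 RefSeq windows of 250 bases, so neither is particular to these genes. A loose form of the site bound by DUX4 (TAA, then 3 bases of any kind, then AATCA) was in 0.956% of all windows and in none of the 6 windows found for Fat1, Sorbs2, Pdlim3 and Slc25a4. These are matches of letters and not measured binding. No window was found for Frg1.

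Frg1 had the lowest ratio of the 5 genes. It had 343 counts in the FLExDUX4 total against 730 in the wild-type total, or 26.5 and 39.4 CPM, the count relative to the scaled library total. The log2 ratio was -0.57 (interval -0.76 to -0.39), so the wild-type level was 1.49 times the FLExDUX4 level. Of the 13396 genes compared, 13.9% had a lower ratio. Frg1 lay just inside the limit of 1.5-fold used here (0.58 on the log2 scale), just past it when the totals were scaled by upper quartile (-0.59) or by total counts on genes (-0.60), and farther past it by spike-ins (-0.85).

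Slc25a4 was the member with the most counts, 38848 for FLExDUX4 against 57846 for wild-type, which scale to 2997 and 3120 CPM (log2 ratio -0.06, interval -0.08 to -0.04). The wild-type level was 1.04 times the FLExDUX4 level. The other ADP/ATP carriers had few counts in this tissue. Slc25a5, the carrier of most dividing cells, had 193 and 262 counts, and the germ cell carrier Slc25a31 had none in either total, which allows up to 3 counts. These counts were compared without dividing by length. Slc25a4 made up 99.51% (interval 99.43 to 99.57) of the counts on the carriers in FLExDUX4 and 99.55% (99.49 to 99.60) in wild-type muscle, and the intervals overlap.

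Pdlim3 was higher in FLExDUX4 mice by a small margin. It had 3020 counts against 4012, or 233 and 216 CPM (log2 ratio 0.11, interval 0.04 to 0.18, or -0.17 by spike-ins). Pdlim3 took 10.95% (interval 10.6 to 11.3) of the counts on the PDZ-LIM family in FLExDUX4 mice and 10.5% (10.2 to 10.8) in wild-type mice.

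Sorbs2 was lower. It had 638 counts in the FLExDUX4 total against 1113 in the wild-type total, or 49.2 and 60.0 CPM (log2 ratio -0.29, interval -0.43 to -0.14). Its paralog Sorbs3 (vinexin) had 102 against 142 (log2 ratio 0.04, interval -0.34 to 0.42).

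Fat1 had the fewest counts, 43 for FLExDUX4 against 53 for wild-type, which scale to 3.32 and 2.86 CPM. Its ratio of 0.21 had an interval from -0.40 to 0.82, so a difference between the totals in either direction was not detectable at this depth. Fat1 and its paralogs Fat2, Fat3 and Fat4 together had 75 and 123 counts. Of these, Fat1 took 57.3% (interval 45.4 to 68.7) in FLExDUX4 mice and 43.1% (34.2 to 52.3) in wild-type mice, with overlapping intervals.

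**Figure D1:**
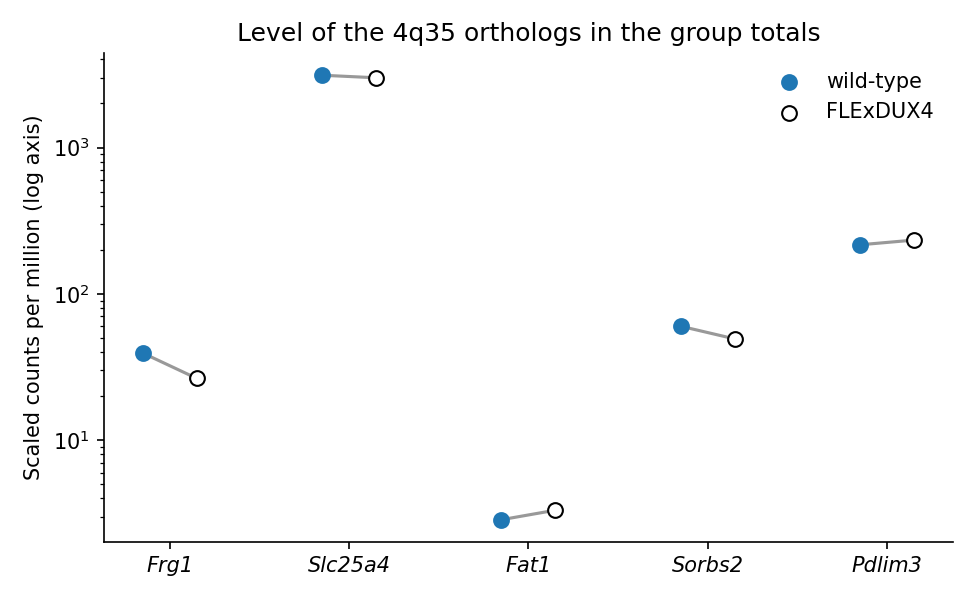
Scaled CPM (log axis) of the 5 genes in the wild-type total (filled) and the FLExDUX4 total (open), each point being one group total over 3 mice with no error bar. The line falls most for Frg1, from 39.4 to 26.5, and is close to level for Slc25a4, at 3120 and 2997.

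No gene of the 5 passed 1.5-fold. Over all 13396 genes compared, 26.8% passed it (13.1% as higher and 13.7% as lower), and 12.2% of the 9300 genes with at least 100 counts, which 4 of the 5 have. The interval excluded 0 for Frg1, Sorbs2 and Slc25a4 below 0 and for Pdlim3 above it. Among all genes compared, 41.1% had an interval that excluded 0, 20.6% below it and 20.5% above it. The median ratio of the 5 was -0.06, beside a median of -0.003 over all genes compared.

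Scaling to the ERCC and SIRV spike-in RNAs instead of TMM moved ratios by -0.28, or by slightly less for genes with few counts because of the pseudocount, and all 5 genes then had ratios below 0, with Fat1 at -0.06 and Slc25a4 at -0.33. With that scaling 1044 genes passed 1.5-fold as higher and 3186 as lower, against 1751 and 1834 with TMM.

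**Figure D2:**
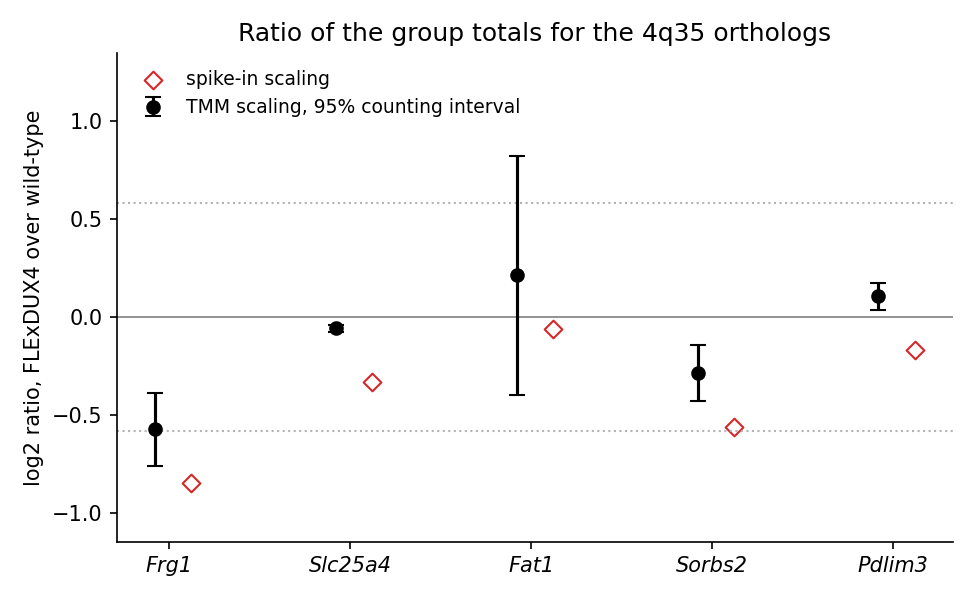
Log2 ratio of the FLExDUX4 to the wild-type total for the 5 genes, as filled points with TMM scaling and 95% counting intervals and as open diamonds with spike-in scaling; dotted lines mark 1.5-fold. The interval of Fat1, from -0.40 to 0.82, is the widest and spans 0, and Pdlim3 changes from 0.11 to -0.17 with the scaling.

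Differences between 2 genes within the same totals do not depend on the scaling. Of the 10 pairs among the 5 genes, 7 had a difference in log2 ratio whose 95% interval (normal approximation, counting error only) excluded 0. Frg1 was below each of the other 4. Its ratio was below that of Pdlim3, with a difference of -0.68 (interval -0.88 to -0.48), of Slc25a4, with -0.52 (interval -0.70 to -0.33), and of Sorbs2, with -0.29 (interval -0.52 to -0.05). Against Fat1 the difference was -0.79 (interval -1.40 to -0.18). Sorbs2 was below its neighbour Pdlim3 by -0.39 (interval -0.55 to -0.24). The 3 pairs whose interval held 0 all included Fat1.

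The genes that overlap the 5 were also examined, because the counting notes used here do not say how strand was treated. Frg1, Slc25a4 and Pdlim3 overlap no other annotated gene. The antisense genes within Fat1 and Sorbs2 had at most 1 count in a total, and Sorbs2os, the opposite-strand transcript of Sorbs2, had none. Gm45457, an unconfirmed transcript of 3089 bases within Sorbs2 on the same strand (45779228 to 45782316) that shares no base with a Sorbs2 exon, had 19 counts in the FLExDUX4 total against 77 in the wild-type total. Its ratio was -1.48 (interval -2.31 to -0.76), and it was named after its values were seen. Counted together with it, Sorbs2 had a ratio of -0.34 (interval -0.48 to -0.20).

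The other orthologs of 4q35 genes lie in the same block of chromosome 8. Of 32 such genes, 20 had enough counts to be compared, 12 of them higher and 8 lower, with ratios from -0.86 to 1.38 and a median of 0.18. Of all genes compared, 49.7% had a ratio above 0. With spike-in scaling 8 were higher and the median was -0.10. Past 1.5-fold, 6 were higher and 1 lower, beside 26.8% of all genes compared. By spike-ins this balance turned, with 2 higher and 3 lower. The highest ratio, 1.38 for the centromere gene Cenpu, rests on 17 counts against 9. Tenm3, a teneurin adhesion receptor at the far end of the block, had 44 counts against 115 (log2 ratio -0.86, interval -1.41 to -0.36). Cdkn2aip, which encodes a regulator of p53 signaling, had 99 against 81 (log2 ratio 0.80, interval 0.37 to 1.25, or 0.53 by spike-ins and so inside 1.5-fold). Helt, a transcription factor of neuron development, had 63 against 54 (log2 ratio 0.73, interval 0.19 to 1.29, or 0.46 by spike-ins and so inside it). Tlr3, a sensor of double-stranded RNA, had 33 against 24 (log2 ratio 0.96, interval 0.17 to 1.80, or 0.69 by spike-ins).

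The other orthologs with the most counts had ratios nearer 0 than Tenm3, Cdkn2aip, Helt and Tlr3. Frg1, in the same block with 343 counts against 730, had a ratio of -0.57. Acsl1, which activates long-chain fatty acids, had 3029 counts against 4349 (log2 ratio -0.01, interval -0.07 to 0.06). Ufsp2, a protease of the UFM1 pathway, had 683 against 842 (log2 ratio 0.21, interval 0.07 to 0.36, or -0.06 by spike-ins). Irf2, an interferon regulatory factor, had 459 against 544 (log2 ratio 0.27, interval 0.09 to 0.45), a difference that spike-in scaling removed. Wwc2 had 371 against 619 (log2 ratio -0.22, interval -0.41 to -0.03, or -0.50 by spike-ins). Rwdd4a had 399 against 450 (log2 ratio 0.34, interval 0.14 to 0.54, or 0.07 by spike-ins). Of the 12 genes not compared, 8 had at most 3 counts in either total, among them Zfp42, the pluripotency gene REX1, and the melatonin receptor Mtnr1a.

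Taken over every annotated gene from Frg1 to Tenm3, the block of 6.83 Mb holds 123 genes of the table, 74 of them with no count in either total. Of the 32 compared, 16 were higher and 16 lower, and their median ratio was 0.01. On the rest of chromosome 8, 336 of the 695 genes compared were higher and the median was -0.02. Past 1.5-fold were 31.2% of the block's genes and 27.3% of those on the rest of the chromosome.

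**Figure D3:**
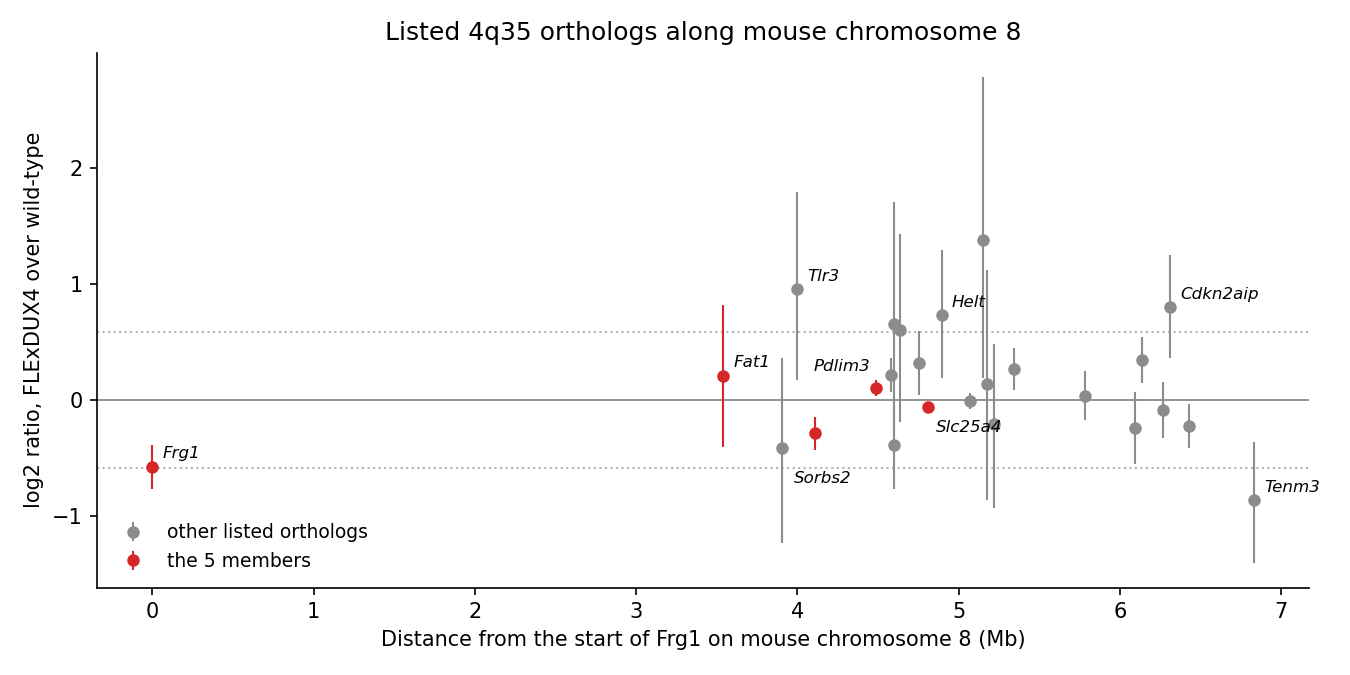
Log2 ratio of the FLExDUX4 to the wild-type total, with 95% counting intervals, for the 25 listed 4q35 orthologs compared, placed by distance from the start of Frg1 on chromosome 8 in Mb; the 5 members are in red and dotted lines mark 1.5-fold. Ratios above and below 0 lie mixed along the block, from -0.57 at Frg1 to -0.86 at Tenm3.

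Partners of Slc25a4 in adenine nucleotide exchange had small ratios of either sign with TMM scaling. Of 8 genes, 7 were compared, 3 higher and 4 lower, none past 1.5-fold and none higher with spike-in scaling. Of all genes with at least 100 counts, 12.2% passed 1.5-fold, and their median absolute ratio was 0.20. The median of the 7 partners was -0.04. The outer membrane channel Vdac1 had 12073 counts against 18831 (log2 ratio -0.12, interval -0.16 to -0.09). The phosphate carrier Slc25a3 had 10845 against 15351 (log2 ratio 0.02, interval -0.02 to 0.05, or -0.26 by spike-ins). The mitochondrial creatine kinase Ckmt2 had 10315 against 15199 (log2 ratio -0.04, interval -0.08 to -0.01). The intervals of Vdac1 and Slc25a3 do not overlap that of Slc25a4 (-0.08 to -0.04).

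The PDZ-LIM relatives of Pdlim3 were split, with 3 of 6 higher, none of them higher with spike-in scaling, and a median of -0.03. Pdlim5 (ENH) had 3874 counts against 4593 (log2 ratio 0.27, interval 0.21 to 0.33, or -0.01 by spike-ins). Ldb3 (ZASP/Cypher), a principal Z-disc protein, had 16546 against 23486 (log2 ratio 0.01, interval -0.02 to 0.04, or -0.26 by spike-ins).

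Among 13 further Z-disc genes 11 were compared, 9 of them higher and 2 by spike-ins, and the median of 0.16 became -0.12. Of all genes compared, 49.7% had a ratio above 0 with TMM. Csrp3 (muscle LIM protein) had 1047 counts against 765, more in the smaller FLExDUX4 total (log2 ratio 0.97, interval 0.83 to 1.11). Actn1, the non-muscle α-actinin, had 253 against 233 (log2 ratio 0.63, interval 0.37 to 0.90). These 2 were the Z-disc genes past 1.5-fold, beside 26.8% of all genes compared and 12.2% of those with at least 100 counts. Csrp3 alone stayed past 1.5-fold with spike-in scaling, at 0.69. The muscle α-actinins Actn2 and Actn3, the Z-disc partners of the PDZ-LIM family, had ratios of 0.24 (interval 0.18 to 0.30) and 0.12 (interval 0.11 to 0.14), or -0.04 and -0.15 with spike-in scaling.

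Of a list of 10 FAT and Dachsous cadherins and partners of Fat1, among them Ena/VASP proteins and the catenin gene Ctnnb1, 7 were compared, 4 of them higher, 2 with spike-in scaling, and the median was 0.01. Fat4 had 18 counts against 57 (log2 ratio -1.13, interval -1.999 to -0.36), and the actin regulator Vasp had 126 against 303 (log2 ratio -0.75, interval -1.06 to -0.45). Enah, of the same Ena/VASP family as Vasp, had 956 against 1062 (log2 ratio 0.36, interval 0.24 to 0.49). The ubiquitin ligase Cbl, a partner of SORBS2, had 291 against 493 (log2 ratio -0.24, interval -0.46 to -0.03).

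Splicing regulators of muscle were followed because FRG1 is a spliceosome protein. Of 10 genes 9 were compared, 6 of them higher, none higher by spike-ins and none past 1.5-fold, and the median was 0.04. Of all genes with at least 100 counts, 12.2% passed 1.5-fold. Rbfox2 had 454 counts against 788 (log2 ratio -0.28, interval -0.45 to -0.11), and Rbfox1 had 3656 against 5174 (log2 ratio 0.02, interval -0.05 to 0.08, or -0.26 by spike-ins). Mbnl1, sequestered in myotonic dystrophy, had a ratio of 0.22 (interval 0.18 to 0.27), or -0.05 by spike-ins.

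**Figure D4:**
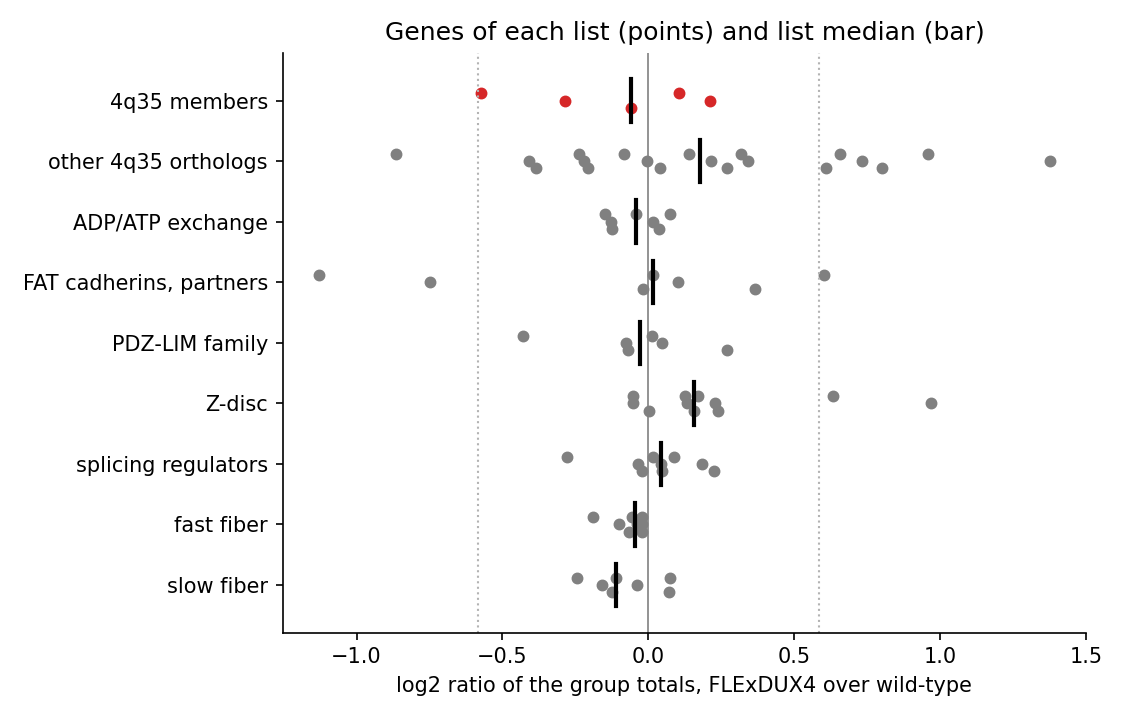
Log2 ratio of the FLExDUX4 to the wild-type total (x axis) for the compared genes of each list (points) with the list median (bar); dotted lines mark 1.5-fold. The fiber lists and the ADP/ATP exchange list lie within 0.25 of 0, while the other 4q35 orthologs, many with few counts, spread from -0.86 to 1.38.

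Markers of the tissue and of other cell types are given beside these ratios, and their part in them was not tested. Fast fiber genes dominated, with Myh4 at 384762 and 575807 counts, and all 8 were lower by small ratios, from -0.19 to -0.02. The 7 slow fiber genes ranged from -0.25 to 0.07. Their summed levels were 927 CPM in FLExDUX4 and 997 CPM in wild-type mice. The 5 endothelial markers had summed levels of 156 and 182 CPM, with Kdr at -0.56, Emcn at -0.44 and Cldn5 at -1.35. The other endothelial markers, Pecam1 at 0.06 (interval -0.07 to 0.20) and Cdh5 at -0.03 (interval -0.19 to 0.14), had intervals that held 0. The 6 fibroblast markers had summed levels of 1294 and 1165 CPM. The interval lay above 0 for Col1a1 (0.53) and Ly6a (0.44) and held 0 for Pi16 (0.32), Pdgfra (0.05), Dcn (0.04) and Col3a1 (0.01), and 3 of the 6 ratios were above 0 with spike-in scaling. The 5 adipocyte markers had summed levels of 158 and 94.7 CPM, of which Cfd made up 113 and 61.7 CPM. Their ratios were 0.88 for Cfd, 0.70 for Adipoq, 0.41 for Plin1, 0.20 for Cidec (interval -0.14 to 0.53) and -0.83 for Lep (interval -1.95 to 0.15). The 5 smooth muscle markers stood at 337 and 310 CPM, of which Rgs5 made up 260 and 249 CPM. The interval lay above 0 for Cnn1 (1.79), Tagln (0.49) and Acta2 (0.38), whose ratios were above 0 also by spike-ins, and held 0 for Rgs5 (0.06) and Myh11 (0.02). The 5 leukocyte markers stood at 63.9 and 65.2 CPM, with Ptprc at 0.43, Csf1r at 0.01, Lyz2 at -0.02, Cd68 at -0.65 and Adgre1 at -0.67, all with intervals that held 0. The 5 Schwann cell markers stood at 149 and 141 CPM, with ratios from -0.32 to 0.44. The 5 cardiac markers had summed levels of 4.24 and 3.88 CPM. Among them Nppa, Nppb and Tnni3 had 4 counts at most, Tnnt2 had 42 and 53 counts and Myh6 had 13 and 19. The hindlimb genes Hoxc10 and Pitx1 had at most 1 count, Tbx4 had 10 in each total, and the forelimb gene Tbx5 had 14 and 34.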

How the data were processed

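QuantSeq 3′ mRNA libraries of 3 FLExDUX4 and 3 wild-type mice were sequenced on a NextSeq. The authors trimmed reads with cutadapt 1.16 and aligned them with STAR 2.5.3a to GRCm38 plus the sequences of both spike-in mixes (ERCC, SIRV), and their processing notes list featureCounts 1.6.2. The deposited counts used here are whole-number counts per gene summed by the authors over each genotype, without normalization. The deposited table also has 6 columns of single samples whose names match no label, which were not used in any step, and columns of the authors' DESeq2 comparison (mean, fold change, p-value), also not used. The quasi-likelihood test foreseen for single samples was therefore not run, and no test was made.

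Spike-ins were left out of gene totals. The filterByExpr function of edgeR 4.0.16 under R 4.3.3 left 13396 genes, on which TMM factors were computed. A pseudocount of 0.5 was added before log2 ratios were taken. The 95% interval is the exact Clopper-Pearson one for the split of a gene's counts between the totals (scipy 1.17.1) and covers counting error only, as do intervals of shares. At most 3 counts was treated as the floor. The calculation was checked on simulated totals in which 200 genes differed. These totals were drawn with counting error only and with the TMM scaling given. The check therefore covers the arithmetic and not the spread between mice or the choice of scaling.

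The members, the gene lists and the 1.5-fold limit were chosen with earlier results of these data known. Genes named are the members, list genes past 1.5-fold with at least 50 counts and an interval excluding 0, and the 2 genes nearest each member. Other list genes, some with few counts or an interval that holds 0, and Gm45457 and Frg2f1 were named after their values were seen. The human DUX4 transgene was not analysed here. Results that need some other genes are not reported here.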

Additional observations from a re-analysis of the deposited data

How the results depend on the processing

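No paired analysis was possible because the names of the single-sample columns match no sample label and carry no replicate number, so those columns were not used. For the same reason tests with edgeR or DESeq2 and leaving out each replicate were not run, and every ratio is limited by having one total per genotype.

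Spike-in totals gave -0.85 for Frg1, -0.33 for Slc25a4, -0.56 for Sorbs2 and -0.17 for Pdlim3, the last with a changed direction, and also put Fat1 at -0.06 within its interval. Total counts on genes gave -0.088 for Slc25a4. RLE, upper quartile, pseudocount 2 and no filter left each of the 5 within its counting interval, and with at least 100 counts Fat1 was left out. Genes past 1.5-fold, 1751 higher and 1834 lower, became 1044 and 3186 with spike-in totals, 4107 and 4997 with no filter, 586 and 546 with at least 100 counts, and 783 and 1018 at 2-fold. Of the other 4q35 orthologs, 12 were higher, or 7 with at least 100 counts, and 7 passed 1.5-fold, or 11 with no filter, 3 with at least 100 counts and 1 at 2-fold. By spike-ins 5 passed it, 2 higher and 3 lower, against 6 higher and 1 lower with TMM. Fewer or more genes tested, and the stricter fold, account for these counts by construction, while why spike-in totals differ from TMM was not tested. For the other lists, the numbers of genes higher and of genes past 1.5-fold were taken again under these alternatives. Of these numbers, 181 stayed within the limit set for them and 29 did not. Single genes outside the 5 were not part of this tally.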

Other observations

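FRG2, another gene named for the FSHD region, has a relative in the mouse table, Frg2f1 on chromosome 4, named here after its values were seen. It had 24 counts in the FLExDUX4 total against 43 in the wild-type total, with a log2 ratio of -0.32 (interval -1.11 to 0.43), so a difference was not detectable at this depth. Duxf3, a mouse double homeobox gene, had no count in either total, which allows up to 3 counts.

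For each of the 5 genes, the genes nearest in scaled CPM over the 2 group totals (Euclidean distance on the log2 scale) were taken as those most alike. With only 2 values per gene, likeness means only that both levels are close, and the ratios can still differ in sign. Nearest to Frg1 were Otud1, with 357 and 740 counts and a ratio of -0.53, and BC004004, with 342 and 697 counts and a ratio of -0.51. Nearest to Sorbs2 were Rad21, a cohesin subunit, with 638 and 1107 counts, and Fam210a, with 645 and 1116. Nearest to Pdlim3 were Itm2b, with 3014 and 3951 counts, and Hadha, of mitochondrial fatty acid oxidation, with 3059 and 4060. Nearest to Slc25a4 were Actn3, with 43707 and 57338 counts and a ratio of 0.12, and Pygm, the muscle glycogen phosphorylase, with 43610 and 61550 counts and a ratio of 0.02, both of the other sign than Slc25a4 with TMM scaling. Fat1 shared its counts of 43 and 53 with Mchr1, and Hyi had 43 and 52.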
